A study of Mus musculus with 2 samples.

Results

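The cyclins, the cyclin-dependent kinases (CDKs), their inhibitors and the genes that license DNA replication were compared between 46C mouse embryonic stem cells carrying a Gbx2 vector and cells carrying the empty vector. They were picked by symbol: cyclins, CDKs, CDK inhibitors, E2F factors, numbered Cdc genes and Mcm genes, without Cdkn1a, Cdkn1c, Ccng1 and Cdc42. This gave 74 of the 14500 symbols in the deposited table. Cyclins named by a letter alone (Ccnc, Ccnf, Ccnh and Ccnk) fall outside this choice and are described with the other cell cycle genes.

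RNA was sequenced from 1 library titled PB-Gbx2 (Gbx2 overexpression) and 1 library titled PB (empty vector), both from 46C cells at passages 21 to 24, grown on gelatin in serum medium with LIF. The table's column of each library also carries the suffix P3, which no label explains. In the 46C line a green fluorescent protein reporter sits at the Sox1 gene. The labels do not say whether the cells were a clone or a pool, nor what promoter drives the vector. The source names state the opposite of the titles, so that PB carries the source name of the overexpressing cells. Groups follow the titles here, and with the source names every direction would turn around. Gbx2, a homeobox transcription factor, stood at a level of 1178 in PB-Gbx2 and 345 in PB, 3.41-fold higher in PB-Gbx2, and reads of the vector cannot be told apart from reads of the endogenous gene. With 1 library per group there is no replicate error and no test, so each ratio was only set beside the ratios of other genes.

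A level is the authors' normalized value, rounded to whole numbers, and the sorted levels of both libraries are identical. Read depth is therefore unknown, and no counting interval can be given. Levels are not per length and are compared between libraries, not between genes, unless a level per kilobase is named. Defining markers of embryonic stem cells were well above the median level of 388 in both libraries. Each of the 6 markers reached at least 9456 in PB-Gbx2 and at least 7508 in PB. Their summed levels were 93776 in PB-Gbx2 and 63972 in PB. By fold, Nanog (19872 in PB-Gbx2, 8918 in PB) and Zfp42 (16671 in PB-Gbx2, 8320 in PB) differed most. Pou5f1 (10597 in PB-Gbx2, 9446 in PB) and Sox2 (10302 in PB-Gbx2, 9894 in PB) differed least. Of 7 markers of fibroblasts, which can serve as feeder cells, 5 were listed, with summed levels of 2032 in PB-Gbx2 and 2769 in PB, most of it from Vim (1420 in PB-Gbx2, 1698 in PB) and Thy1 (492 in PB-Gbx2, 866 in PB). The collagen Col1a1 stood at 36 in PB-Gbx2 and 132 in PB, and Col1a2 at 18 in PB-Gbx2 and 9 in PB. The part of either marker set in the ratios below was not tested. In RNA of whole cultures, a smaller share of cells in a cycle phase and less RNA per cell cannot be told apart.

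The cell cycle is driven by cyclins, whose amounts come and go, and by the CDKs that they activate. In G1, D-type cyclins with Cdk4 or Cdk6 phosphorylate the retinoblastoma protein, which frees E2F factors to switch on genes of S phase, while the INK4 and Kip inhibitors restrain these kinases. Before S phase, Cdc6 and other loaders place the MCM2-7 helicase on origins, which licenses them for a single round of replication. Mouse embryonic stem cells cycle fast, with a short G1 phase, low levels of D-type cyclins and of CDK inhibitors, and cyclin E activity that varies little over the cycle.

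Promoter windows of 4 members are shown first: Mcm5 and Mcm6 for the licensing genes, whose levels hardly differed between the libraries, Cdk1 for the mitotic genes, and Cdk6, which had the largest ratio of all members. Each window runs from 250 bases before to 50 bases after the start of the gene and is from RefSeq, build GRCm38.p6. Mcm5 lies at chr8:75109259-75109558 on the plus strand, Mcm6 at chr1:128359656-128359955 on the minus strand, Cdk1 at chr10:69352863-69353162 on the minus strand and Cdk6 at chr5:3343643-3343942 on the plus strand. Capitals mark E2F letters (TTTCCCGC, TTTGGCGC, TTTCGCGC or TTTGCCGC) and, in Cdk1 and Cdk6, also the letters of the cell cycle genes homology region, CHR (TTTGAA or TTCGAA), all read on both strands.
Mcm5: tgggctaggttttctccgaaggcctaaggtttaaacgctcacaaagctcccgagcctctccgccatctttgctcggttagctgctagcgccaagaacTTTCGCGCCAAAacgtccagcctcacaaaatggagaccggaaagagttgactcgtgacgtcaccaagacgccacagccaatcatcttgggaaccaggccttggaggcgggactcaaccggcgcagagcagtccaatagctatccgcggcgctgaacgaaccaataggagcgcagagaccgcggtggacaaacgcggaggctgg
Mcm6: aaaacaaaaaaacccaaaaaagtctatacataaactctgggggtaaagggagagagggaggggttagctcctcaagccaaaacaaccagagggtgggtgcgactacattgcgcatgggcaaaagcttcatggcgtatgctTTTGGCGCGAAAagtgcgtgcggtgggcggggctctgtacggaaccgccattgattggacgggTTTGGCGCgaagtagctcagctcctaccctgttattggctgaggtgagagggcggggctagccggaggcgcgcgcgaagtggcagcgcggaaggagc
Cdk1: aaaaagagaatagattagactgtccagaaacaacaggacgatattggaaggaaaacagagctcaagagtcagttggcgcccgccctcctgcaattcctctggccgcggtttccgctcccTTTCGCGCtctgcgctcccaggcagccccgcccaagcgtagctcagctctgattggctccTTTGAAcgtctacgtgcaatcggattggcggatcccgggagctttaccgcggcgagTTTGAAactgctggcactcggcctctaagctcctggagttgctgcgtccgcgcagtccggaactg
Cdk6: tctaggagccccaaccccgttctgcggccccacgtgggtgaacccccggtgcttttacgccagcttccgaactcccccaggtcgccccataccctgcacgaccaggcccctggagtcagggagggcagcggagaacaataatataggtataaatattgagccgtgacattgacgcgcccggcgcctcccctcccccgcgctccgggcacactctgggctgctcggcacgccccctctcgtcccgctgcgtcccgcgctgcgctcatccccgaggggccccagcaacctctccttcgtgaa
In Mcm5 the capitals are 2 E2F matches on opposite strands that overlap, the first starting 153 bases before the gene. Mcm6 has the same kind of overlapping pair at 110 bases and a further match at 47 bases before its start. Cdk1 has 1 E2F match at 131 bases and CHR letters at 71 and 15 bases before its start, and the Cdk6 window holds neither motif.

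Most members hardly differed between the libraries. Of the 74 members, 52 (70.3%) lay within 1.2-fold on the log2(level + 1) scale, against 48.7% of all genes, and the members had a median log2 ratio (PB-Gbx2 over PB) of -0.03, beside 0.00 for all genes. The level was higher in PB-Gbx2 for 34 members, lower for 39 and equal for 1, and 49.2% of all genes were higher. At least 2-fold higher in PB-Gbx2 were 5 members (6.76%), where 5.14% of all genes were, and 0 members were at least 2-fold lower, where 5.26% of all genes were. At 1.5-fold, 8 members were higher (10.8%, with 11.6% of all genes) and 2 lower (2.7%, with 12.2% of all genes). Without regard to level, the share of members on the higher side was thus near that of all genes, and the share on the lower side was below it.

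The level of a gene matters for these shares, because ratios scatter more at low levels. The SD of log2 ratios was 1.15 in the lowest and 0.32 in the highest of 10 groups of equal size by mean level, called level groups here. Of the 41 members at a mean level of at least 1000, 35 lay within 1.2-fold (85.4%), where 67.9% of all genes at such levels did, and their median absolute log2 ratio was 0.12, beside 0.17 for all genes at such levels. Ccnd1, which was past 2-fold, was the sole one of these 41 past 1.5-fold (2.44%). Of all genes at such levels, 3.65% were 1.5-fold higher or more, 3.53% were 1.5-fold lower or more, and 0.888% were 2-fold higher or more. Of the 25 members between 100 and 1000, 2 were at least 2-fold higher (8%, with 2.54% of all genes at such levels). Of the 8 members under 100, 2 were (25%, with 14% of all genes at such levels). At 2-fold, the higher-side share was thus above that of all genes in each range, but on 1 or 2 members per range. On the lower side, no member passed 2-fold. Of all genes, 26 of 3942 at 1000 or more, 174 of 6682 between 100 and 1000 and 562 of 3876 under 100 did.

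**Figure D1:**
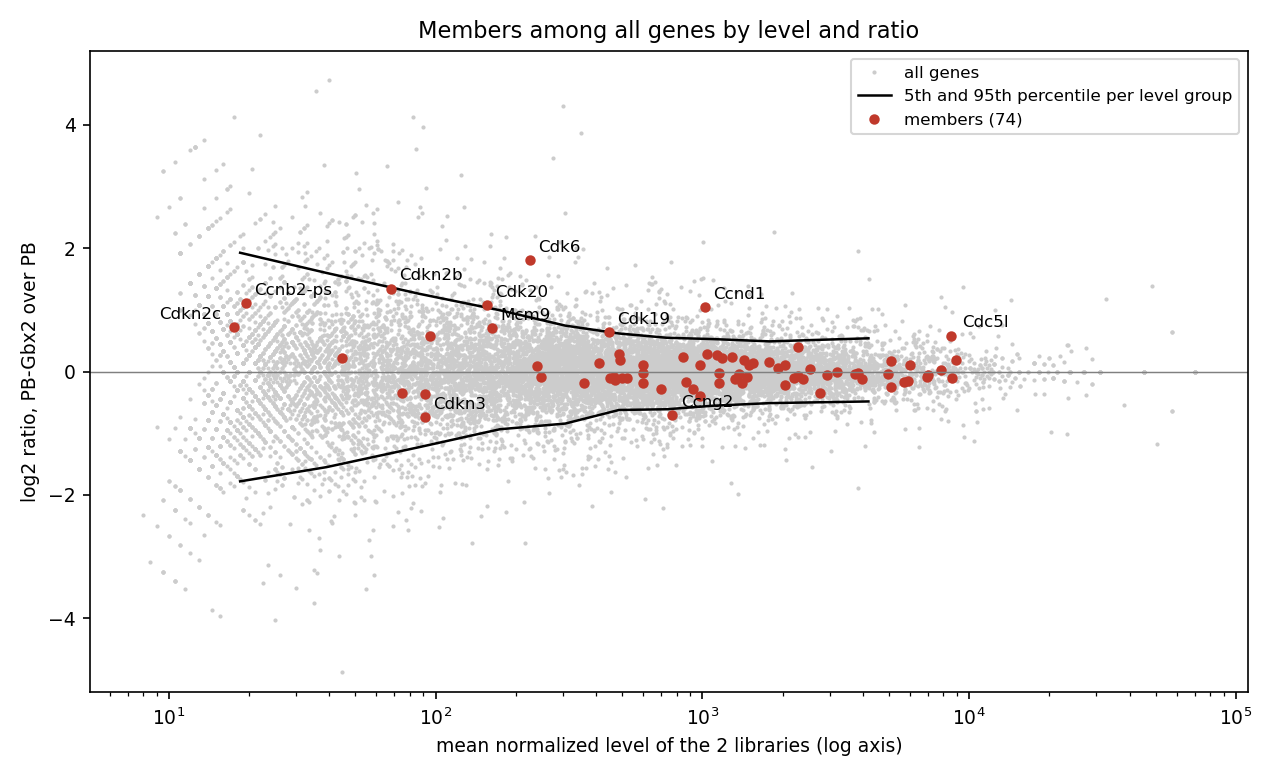
Log2 ratio of PB-Gbx2 over PB against the mean normalized level on a log axis, for all genes (grey) and the 74 members (red), with black lines at the 5th and 95th percentile of each level group. Cdk6 and Ccnd1 lie well above the upper line, while most members at levels above 1000 lie close to 0.

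Among genes of similar level, the members that stood furthest out were Cdk6 and Ccnd1, both of the group of D-type cyclins and their kinases. By ratio alone, Cdkn2b, Ccnb2-ps and Cdk20 came before Ccnd1. Cdk6, a partner kinase of D-type cyclins, had a level of 352 in PB-Gbx2 and 100 in PB, 3.52-fold higher in PB-Gbx2. In its level group, 1.17% of genes had a ratio at least as far from 0. Ccnd1, cyclin D1, which links mitogen signals to G1, had a level of 1380 in PB-Gbx2 and 670 in PB, 2.06-fold higher, and 1.45% of its level group lay as far out. Both were high in PB-Gbx2. In the authors' deposited table Cdk6 has a p of 0.00283 (adjusted 0.302) and Ccnd1 a p of 0.00614 (adjusted 0.501). They are the 2 of 74 members with a p under 0.05 in the authors' deposited table, which gives such a p to 3.74% of all rows, so the members' share was not above that of all rows. No member has an adjusted p under 0.05 in the authors' deposited table, where 34 rows (0.234%) do. The adjusted p there is 1 for the other 72 members.

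The other 3 genes of this group were lower in PB-Gbx2 by less than 1.5-fold. Ccnd3, cyclin D3, stood at 2282 in PB-Gbx2 and 2486 in PB, and Cdk4, the other kinase of these cyclins, at 6736 in PB-Gbx2 and 7184 in PB. Ccnd2, cyclin D2, stood at 80 in PB-Gbx2 and 103 in PB. The D-type cyclins thus did not move as one, with cyclin D1 on one side and cyclins D2 and D3 on the other.

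Scaled by the longest GENCODE M21 transcript, cyclin D1 came to 369 per kilobase in PB-Gbx2 and 179 in PB, cyclin D3 to 591 in PB-Gbx2 and 644 in PB, and cyclin D2 to 12.6 in PB-Gbx2 and 16.3 in PB. Ccnd1 then made up 37.9% of the summed level per kilobase of the D-type cyclins in PB-Gbx2 and 21.3% in PB. The order of the cyclins, with D3 first and D2 last, was the same in both libraries. For the kinases, Cdk4 came to 3281 per kilobase in PB-Gbx2 and 3499 in PB, and Cdk6 to 30.5 in PB-Gbx2 and 8.68 in PB. Cdk6 was therefore 0.922% of their summed level per kilobase in PB-Gbx2 and 0.247% in PB, and Cdk4 was nearly all of it in each. Which transcripts the authors counted is not given in the sources used here, so these levels per kilobase are approximate.

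**Figure D2:**
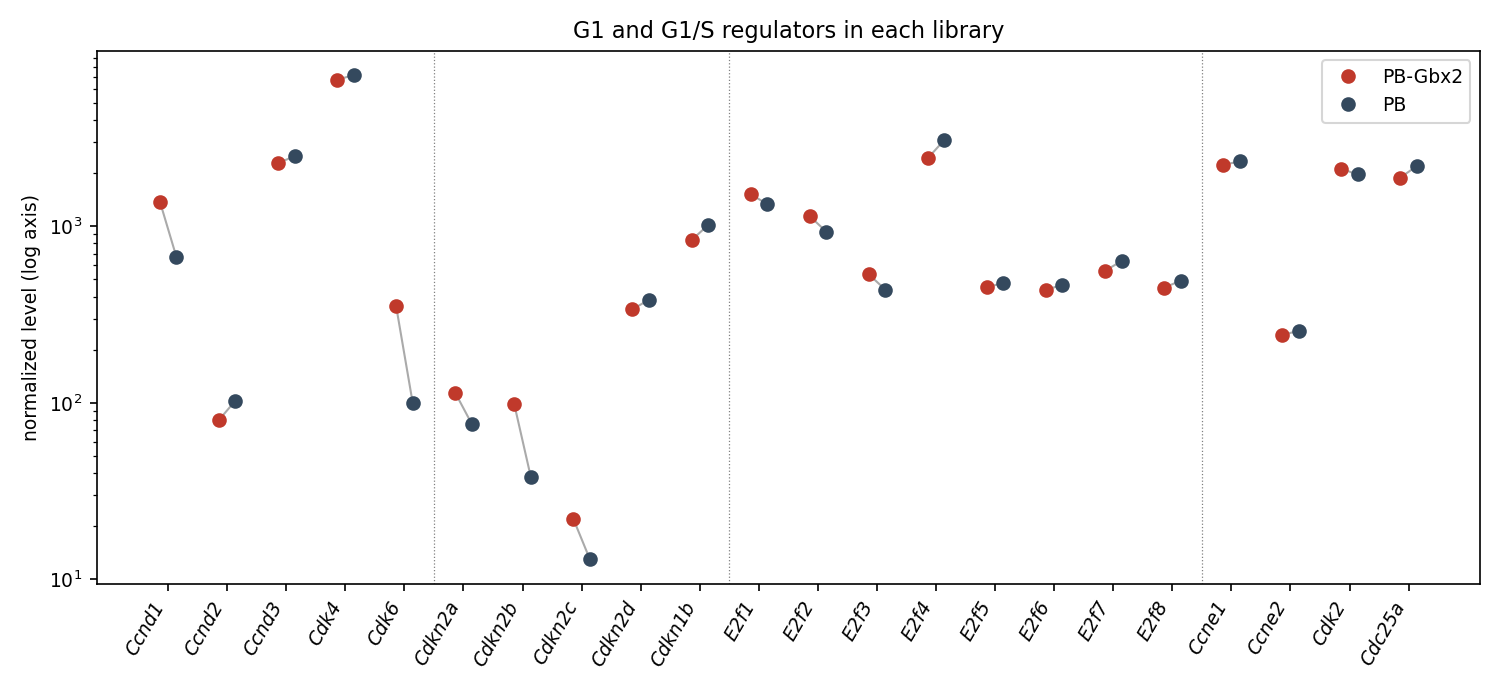
Normalized level (log axis) of the G1 and G1/S members in PB-Gbx2 (red, left) and PB (dark, right), with 1 library each and dotted lines between role groups. Ccnd1 (1380 in PB-Gbx2, 670 in PB), Cdk6 (352 in PB-Gbx2, 100 in PB) and Cdkn2b (98 in PB-Gbx2, 38 in PB) show the steepest lines.

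Among the 5 inhibitors in the choice, Cdkn2a, Cdkn2b and Cdkn2c were higher in PB-Gbx2, and Cdkn2d and Cdkn1b were lower. Of these 5, Cdkn2d and Cdkn1b had the highest levels per kilobase in both libraries. The inhibitors Cdkn1a (2860 in PB-Gbx2, 1889 in PB) and Cdkn1c (276 in PB-Gbx2, 734 in PB) were left out of the choice. Cdkn2b, p15, which binds Cdk4 and Cdk6, had a level of 98 in PB-Gbx2 and 38 in PB, 2.58-fold higher, and 8.21% of its level group lay as far from 0. Cdkn2a, whose locus codes for both the inhibitor p16 and Arf, an activator of p53, stood at 114 in PB-Gbx2 and 76 in PB, and Cdkn2c, p18, at 22 in PB-Gbx2 and 13 in PB. These ratios of 1.5 and 1.69 lay inside the usual scatter, since 38.9% of genes in the level group of Cdkn2a and 50.6% in that of Cdkn2c lay as far out. The files give 1 level for Cdkn2a, so its products cannot be told apart.

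Cdkn2d, p19, the remaining INK4 inhibitor, stood at 338 in PB-Gbx2 and 384 in PB. Cdkn1b, p27, a Kip inhibitor that binds cyclin E and cyclin A complexes, stood at 834 in PB-Gbx2 and 1014 in PB, 1.22-fold lower in PB-Gbx2. With 3 members higher and 2 lower, the group had a median log2 ratio of 0.58. Over the members that reach a level of 100 in either library, the median was -0.18, so its sign rests on genes under that level.

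E2F factors, most of which bind DNA with a DP partner, control genes of DNA synthesis. The activators E2f1 (1518 in PB-Gbx2, 1336 in PB), E2f2 (1142 in PB-Gbx2, 932 in PB) and E2f3 (534 in PB-Gbx2, 438 in PB) were each higher in PB-Gbx2, by 1.14- to 1.23-fold. The repressors E2f4 (2426 in PB-Gbx2, 3079 in PB), E2f5 (451 in PB-Gbx2, 478 in PB), E2f6 (436 in PB-Gbx2, 466 in PB), E2f7 (560 in PB-Gbx2, 634 in PB) and E2f8 (449 in PB-Gbx2, 491 in PB) were each lower, by 1.06- to 1.27-fold. All 3 activators and all 5 repressors thus lay on opposite sides of 0, with medians of 0.29 and -0.13. Of all 14500 genes, 49.2% were higher in PB-Gbx2 and 7096 were lower. Within 1.2-fold lay 1 of the 3 activators and 4 of the 5 repressors. None of these ratios was large for its level: 19.9% of genes in the level group of E2f4 lay as far from 0, and at least 31.2% in the level group of each of the others.

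At the G1/S transition the levels were close to equal. Ccne1, cyclin E1, stood at 2225 in PB-Gbx2 and 2328 in PB, and Ccne2, cyclin E2, at 242 in PB-Gbx2 and 256 in PB. Their kinase Cdk2 stood at 2112 in PB-Gbx2 and 1964 in PB. Cdc25a, the phosphatase that removes the inhibitory phosphate from Cdk2, stood at 1886 in PB-Gbx2 and 2193 in PB. Cdc34, a ubiquitin-conjugating enzyme that works with SCF ligases, stood at 5404 in PB-Gbx2 and 4818 in PB. The largest of these 5 ratios was the 1.16-fold lower level of Cdc25a. Per kilobase, Ccne1 made up 93.3% of the summed level of the E-type cyclins in PB-Gbx2 and 93.2% in PB.

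The licensing genes had nearly equal levels in both libraries. The 6 subunits of the MCM2-7 helicase, which opens the DNA ahead of the fork, had a summed level of 44137 in PB-Gbx2 and 43990 in PB. Mcm7 stood at 9456 in PB-Gbx2 and 8336 in PB, Mcm4 at 6206 in PB-Gbx2 and 5795 in PB, and Mcm3 at 7932 in PB-Gbx2 and 7760 in PB. Mcm2 stood at 8330 in PB-Gbx2 and 8918 in PB, Mcm5 at 5342 in PB-Gbx2 and 6010 in PB, and Mcm6 at 6871 in PB-Gbx2 and 7171 in PB. So 3 subunits were higher and 3 lower in PB-Gbx2, and the largest of these ratios was the 1.13-fold of Mcm7. Cdc6, which loads the helicase with Cdt1, stood at 1355 in PB-Gbx2 and 1394 in PB.

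Genes that turn loaded helicases into forks were likewise close. Cdc7, the kinase that phosphorylates the MCM complex, stood at 1086 in PB-Gbx2 and 1232 in PB. Cdc45, a part of the active helicase, stood at 1418 in PB-Gbx2 and 1510 in PB, and Mcm10, which helps to start it, at 3188 in both libraries. Mcm8 and Mcm9 do not belong to the loaded hexamer and act together in repair by homologous recombination. Mcm8 stood at 500 in PB-Gbx2 and 539 in PB, whereas Mcm9 stood at 202 in PB-Gbx2 and 124 in PB, 1.63-fold higher. Among genes of its level 20.9% lay as far from 0 as Mcm9, so this pair of partners differed in direction without either standing far out.

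**Figure D3:**
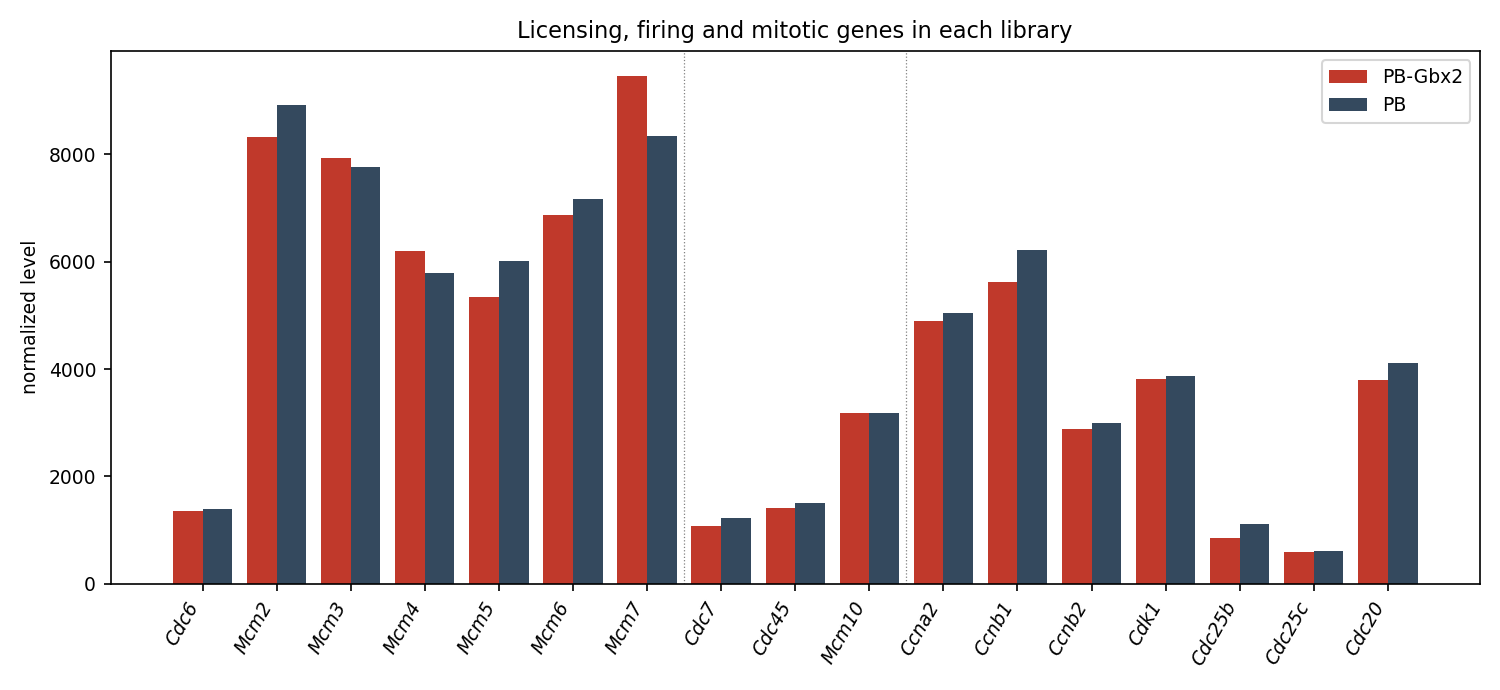
Normalized level of the licensing genes (left), origin firing genes (middle) and mitotic genes (right) in PB-Gbx2 (red, left bars) and PB (dark, right bars), 1 library each. The bars of each pair are nearly equal in height, and the largest fold difference is that of Cdc25b (852 in PB-Gbx2, 1115 in PB).

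From S phase to mitosis, 6 of 7 members were lower in PB-Gbx2, most of them by little. Of all 14500 genes, 7096 were lower. Ccna2, cyclin A2, stood at 4888 in PB-Gbx2 and 5038 in PB, and the mitotic cyclins Ccnb1 at 5616 in PB-Gbx2 and 6216 in PB and Ccnb2 at 2883 in PB-Gbx2 and 2996 in PB. Their kinase Cdk1 stood at 3817 in PB-Gbx2 and 3874 in PB. The phosphatases that activate Cdk1 were Cdc25b, at 852 in PB-Gbx2 and 1115 in PB, and Cdc25c, at 594 in PB-Gbx2 and 606 in PB. Cdc25b had the largest ratio of the group, 1.31-fold lower in PB-Gbx2, and 20.1% of its level group lay as far from 0. In the level group of each of the others, at least 52.9% of genes did, so their directions carry little weight. Ccna1, the germline cyclin A, had low levels of 48 in PB-Gbx2 and 41 in PB. The median log2 ratio of the group was -0.04.

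Genes of anaphase and mitotic exit were split, with 4 higher and 4 lower in PB-Gbx2. Cdc20, which activates the anaphase-promoting complex, stood at 3795 in PB-Gbx2 and 4116 in PB. The 4 subunits of that complex that carry a Cdc name were higher in PB-Gbx2: Cdc23 stood at 2590 in PB-Gbx2 and 1968 in PB (1.32-fold), Cdc16 at 1394 in PB-Gbx2 and 1183 in PB, Cdc27 at 1550 in PB-Gbx2 and 1442 in PB, and Cdc26 at 620 in PB-Gbx2 and 576 in PB. Listed subunits with an Anapc name went both ways. Anapc2, Anapc5, Anapc10 (683 in PB-Gbx2, 434 in PB) and Anapc13 (516 in PB-Gbx2, 406 in PB) were higher. Anapc1 (2230 in PB-Gbx2, 2484 in PB), Anapc4, Anapc7 and Anapc11 (820 in PB-Gbx2, 1038 in PB) were lower. The phosphatase Cdc14b stood at 631 in PB-Gbx2 and 768 in PB, and Cdc14a at 66 in PB-Gbx2 and 84 in PB. Cdkn3, a phosphatase that acts on CDKs, was 1.68-fold lower, at 68 in PB-Gbx2 and 114 in PB, and 27.4% of its level group lay as far from 0.

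Of the CDKs and cyclins linked to transcription, 6 of 9 were higher in PB-Gbx2, where 49.2% of all genes were. The group's median log2 ratio was 0.11. Within 1.2-fold lay 7 of the 9, where 48.7% of all genes did. Cdk19, a kinase of the Mediator complex, stood at 542 in PB-Gbx2 and 349 in PB, 1.55-fold higher, and 9.52% of its level group lay as far from 0. Its close relative Cdk8 stood at 1149 in PB-Gbx2 and 1162 in PB. Cdk7, the CDK-activating kinase, stood at 1236 in PB-Gbx2 and 1029 in PB. Cdk9 and its partners Ccnt1 and Ccnt2, which release paused RNA polymerase II, and Cdk10, Cdk12 and Cdk13 differed by at most 1.17-fold.

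The remaining CDKs and cyclins included 2 members that stood at the edge of the scatter. Ccng2, cyclin G2, an atypical cyclin linked to cell cycle arrest, stood at 587 in PB-Gbx2 and 958 in PB, 1.63-fold lower in PB-Gbx2, and 6.83% of its level group lay as far from 0. Cdk20, a kinase linked to primary cilia, stood at 212 in PB-Gbx2 and 100 in PB, 2.12-fold higher, and 7.45% of its level group lay as far out. Cdk5 (524 in PB-Gbx2, 462 in PB), known for its role in neurons, and Cdk16, Cdk17 and Cdk18 differed by at most 1.17-fold. Ccng2 went the opposite way from its relative Ccng1, a p53 target left out of the members, which stood at 13646 in PB-Gbx2 and 5286 in PB.

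The other members carry a cell division cycle or inhibitor name but work elsewhere. Cdc5l, a splicing factor, had the largest level difference of all 74 members, with 10277 in PB-Gbx2 and 6871 in PB, just under 1.5-fold higher, and 7.59% of its level group lay as far from 0. On the log2(level + 1) scale Cdc5l and Cdkn2a fell just short of 1.5-fold and are not among the 8 members counted as higher. The kinase chaperone Cdc37 stood at 4656 in PB-Gbx2 and 5544 in PB, and the splicing factor Cdc40 at 818 in PB-Gbx2 and 922 in PB. Cdc73 of the PAF1 complex, Cdc123, Cdkn2aip, Cdkn2aipnl and Ccnb1ip1 differed by at most 1.11-fold. Ccnb2-ps, listed as a pseudogene of cyclin B2, stood at 27 in PB-Gbx2 and 12 in PB, and its reads could be shared with Ccnb2, so this value is uncertain.

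**Figure D4:**
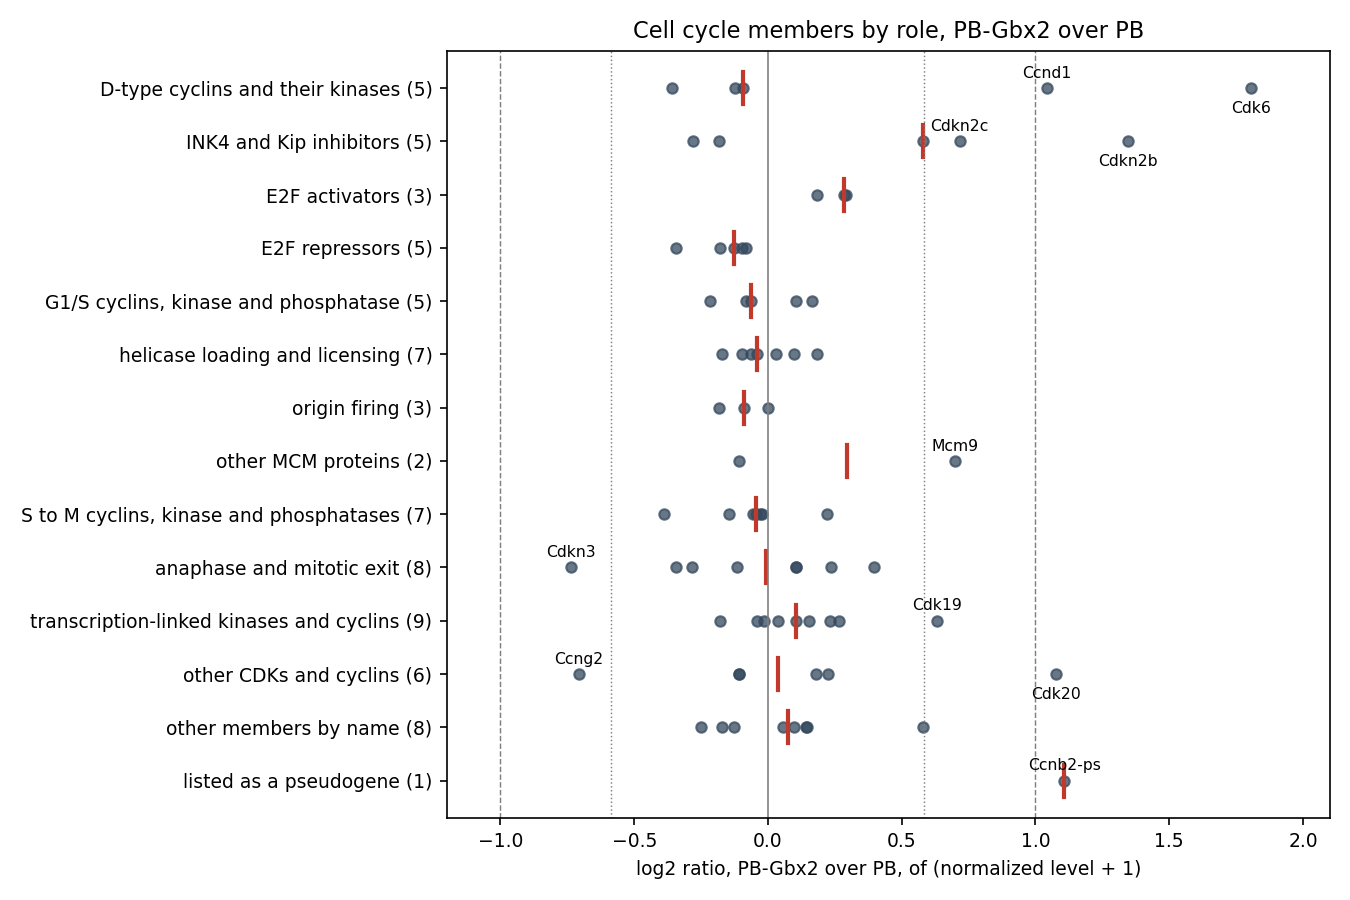
Log2 ratio of PB-Gbx2 over PB for the 74 members by role, with 1 point per gene, a red bar at the median of each role, dotted lines at 1.5-fold and dashed lines at 2-fold. Named points passed 1.5-fold, 8 on the higher side and 2 on the lower side. The E2F activators and repressors lie on opposite sides of 0, none of them past 1.5-fold.

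Reads that overlap genes on the other strand may enter some levels, since neither the counting nor its use of strand is given in the sources used here. In GENCODE M21, 23 of the 74 members share exon sequence with a gene on the opposite strand. Among those past 1.5-fold these are Ccnd1, Cdk6, Cdk19, Cdk20 and Mcm9.

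Promoter windows, a property that did not enter the choice of members, were found for 61 of the 74 members and for 10404 genes of the table. E2F letters occurred in 13 of the 61 members (21.3%) and in 4.72% of all genes. They were found in 5 of the 6 licensing genes with a window (Cdc6, Mcm3, Mcm5, Mcm6 and Mcm7), in E2f2, E2f3 and E2f7, and in Cdc25a, Cdk1, Cdk2, Cdkn2a and Mcm8. CHR letters occurred in 16 of the 61 members (26.2%) and in 16.0% of all genes. Of genes from S phase to mitotic exit, these were Cdk1, Ccnb2, Cdc20, Cdc25b, Cdc14a and Cdkn3. The others were E2f2, E2f3, E2f8, Mcm2, Mcm7, Cdc7, Cdc45, Cdc40, Cdk16 and Cdkn2b. The window of the mitotic cyclin Ccnb1 held no CHR letters.

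Set beside the levels, the 13 members with E2F letters had log2 ratios between -0.22 and 0.58 and a median of -0.02. None passed 1.5-fold, where 11.6% of all genes did on the higher side and 12.2% on the lower side. All of the 13 but Cdkn2a, E2f3, E2f7 and Mcm8 had a mean level above 1000. Of all genes at a mean level of 1000 or more, 3.65% passed 1.5-fold on the higher side and 3.53% on the lower side. The lack of E2F-letter members past 1.5-fold therefore cannot be told apart from their high levels. The 48 members with a window but no such letters had a median of -0.03, with 5 past 1.5-fold on the higher side and 2 on the lower side. Ccnd1, Cdk19 and Ccnb2-ps, also past 1.5-fold on the higher side, had no window and are in neither group. With so few members per group, these counts are given as a description, and nothing is read from their difference. The 16 members with CHR letters had a median of -0.10, with 4 higher and 12 lower in PB-Gbx2. Past 1.5-fold was 1 of these 16 on the higher side and 1 on the lower side. The 45 without had a median of 0.04, with 24 higher and 20 lower. Of all 14500 genes, 49.2% were higher in PB-Gbx2 and 7096 were lower. Nothing is read from this difference either. The letters TAATTA, a core that homeodomain proteins bind, occurred in the windows of 2 members, Mcm10 and Cdkn2c (3.28%), and in 3.23% of all genes. The TAATTA share of the members was thus near that of all genes.

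Cell cycle genes outside the choice gave a similar picture. Of 85 listed genes, 61 (71.8%) lay within 1.2-fold. Of all genes, 48.7% did. Past 1.5-fold were 4 of the 85 on the higher side (with 11.6% of all genes) and 2 on the lower side (with 12.2% of all genes). None of the 85 passed 2-fold, and their median log2 ratio was 0.00. Their median level was 1765. Of all genes at a mean level of 1000 or more, 67.9% lay within 1.2-fold. Of these genes, 3.65% passed 1.5-fold on the higher side and 3.53% on the lower side. The shares of the list were thus nearer to those of genes at such levels than to those of all genes. The 4 higher genes were Ccnf, Orc1, Anapc10 and Fen1. Ccnf, cyclin F, a substrate receptor of an SCF ligase, stood at 5353 in PB-Gbx2 and 3410 in PB. Orc1, a subunit of the origin recognition complex, stood at 2050 in PB-Gbx2 and 1328 in PB. Anapc10, of the anaphase-promoting complex, stood at 683 in PB-Gbx2 and 434 in PB. In their level groups, 5.38%, 5.24% and 8.69% of genes lay as far from 0. The flap nuclease Fen1 had low levels of 49 in PB-Gbx2 and 25 in PB, and 29.1% of its level group lay as far out. The 2 lower genes were Mki67 and Rfc4. Mki67, which codes for the proliferation marker Ki-67, stood at 5795 in PB-Gbx2 and 8908 in PB. The clamp loader subunit Rfc4 stood at 508 in PB-Gbx2 and 806 in PB. In the level groups of Mki67 and Rfc4, 6.55% and 7.93% of genes lay as far from 0.

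By list, origin genes and fork genes differed in the sign of their medians, but most ratios of both were small. Within 1.2-fold lay 6 of the 8 origin genes and 18 of the 27 fork genes, where 48.7% of all genes did. Where 49.2% of all genes were higher in PB-Gbx2, origin recognition and loading genes were higher for 7 of 8, with a median log2 ratio of 0.16. They include Cdt1, the loading partner of Cdc6, at 3112 in PB-Gbx2 and 2917 in PB, and its inhibitor Gmnn, at 1822 in PB-Gbx2 and 1736 in PB. Where 7096 of all 14500 genes were lower, GINS, firing and fork genes were lower for 19 of 27, with a median of -0.12. Among them were Lig1, DNA ligase I, at 4925 in PB-Gbx2 and 6728 in PB, and Pola2, of DNA polymerase alpha, at 1962 in PB-Gbx2 and 2731 in PB. Pcna, the sliding clamp, stood at 4290 in PB-Gbx2 and 4646 in PB.

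The kinase regulators were higher for 8 of 9, with a median of 0.15, where 49.2% of all genes were higher. Some of the 8 were nearly equal, such as Ccnk (1556 in PB-Gbx2, 1551 in PB) and Ccnc (676 in PB-Gbx2, 654 in PB). Wee1, the kinase that holds Cdk1 inactive, stood at 716 in PB-Gbx2 and 512 in PB. Of the pocket proteins and DP partners, 4 of 5 were higher, with a median of 0.35. Rb1, the retinoblastoma gene, stood at 568 in PB-Gbx2 and 444 in PB, and Rbl2 at 352 in PB-Gbx2 and 276 in PB. In their level groups, 29.7% and 39.4% of genes lay as far from 0. Tfdp2 stood at 3262 in PB-Gbx2 and 2439 in PB, with 14.8% of its level group as far out. Tfdp1 was nearly equal, at 2578 in PB-Gbx2 and 2564 in PB. The exception was Rbl1, at 490 in PB-Gbx2 and 602 in PB. Mitotic kinases and checkpoint genes (17), the anaphase-promoting complex with its inhibitor (13) and SCF parts (6) had medians of -0.03, -0.02 and 0.12.

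**Figure D5:**
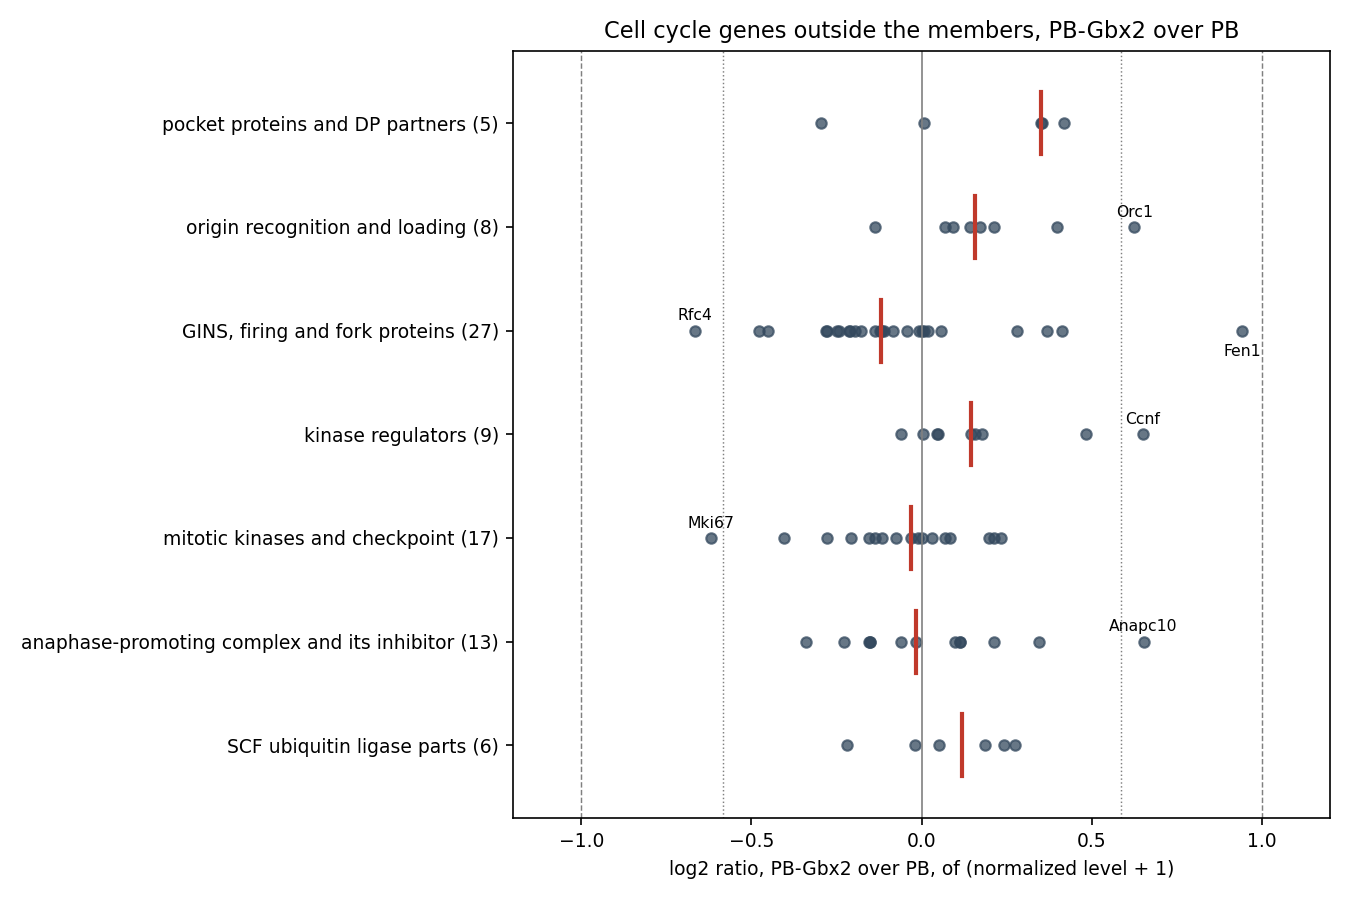
Log2 ratio of PB-Gbx2 over PB for the 85 listed cell cycle genes outside the members, with 1 point per gene, a red bar at each median, dotted lines at 1.5-fold and dashed lines at 2-fold. Named points passed 1.5-fold, and none reached 2-fold.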

How the data were processed

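Total RNA of 2 libraries, PB-Gbx2 and PB, was made into libraries with a TruSeq RNA kit, per the labels' protocols. Per the submitters' processing notes, STAR and build mm9 were used. No version, annotation, counting tool or normalization is given in the sources used here. The authors deposited levels as whole numbers, treated here as a score and not as read counts, because the sorted values of both libraries are equal in all 14501 rows, with a median of 388. The authors also deposited a ratio (PB over PB-Gbx2), its log2 value and a p-value with an adjusted p-value. Their test is not given, and it rests on 1 library per group.

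Rows with the same symbol were summed (no member was affected). Ratios (PB-Gbx2 over PB) were taken as differences of log2(level + 1), a scale that understates changes at low levels. Folds in the text are ratios of the levels as deposited. A gene was counted past 2-fold or 1.5-fold on the log2 scale, where either library reached a level of 1. Genes were ranked by mean level into 10 equal level groups, and the share of each group at least as far from 0 was recorded. No test was possible. As alternatives, the pseudocount was set to 0.1 or 5, the minimum level to 100 or dropped, levels were rescaled to the median ratio, and means replaced medians.

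Every member was assigned to a role group. Values were given for core members, those past 1.5-fold and the largest ratios of each group. Further members are given so that all 74 are accounted for, and Cdt1, Gmnn and Pcna were added for their roles. The members, roles and lists were chosen with earlier results of these data known. Promoter windows came from RefSeq (GRCm38.p6) and transcript lengths from GENCODE M21, matched by symbol. The motif searches and the printed windows were chosen after the levels were seen. The counting was tested on simulated data. Python 3.11.15, numpy 2.4.6, pandas 2.3.3 and matplotlib 3.10.9 were used.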

Additional observations from a re-analysis of the deposited data

How the results depend on the processing

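No paired analysis was possible because there is a single library for each vector, which also means that none could be omitted. A minimum level of 100 in either library gave 3 members at least 2-fold higher in place of 5, and 5 at least 1.5-fold higher in place of 8, since genes with low levels were dropped. The other 18 counts of members under the alternatives stayed within 1.5 times the reported ones. Of 73 medians, 68 moved by less than 0.1. The others were the mean in place of the median for D-type cyclins and their kinases (0.45) and for the INK4 and Kip inhibitors (0.43), the minimum level of 100 for the INK4 and Kip inhibitors (-0.18) and for anaphase and mitotic exit (0.10), and a pseudocount of 5 for the pseudogene (0.91). All 222 log2 ratios of single members moved by less than 1.5-fold, and none past 1.5-fold changed sign. Rescaling changed nothing, because the median ratio of all genes is already 0, so it says nothing about stability. The authors' normalization removed any difference in the overall distribution, and with depth unknown, differences at low levels cannot be set against counting error.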
